A study of Arabidopsis thaliana with 16 samples.

Results

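Trimethylation of histone H3 at lysine 4 (H3K4me3) was compared between sorted guard cells of wild-type (WT) Arabidopsis thaliana and of the reprogrammed genotype FAMA-LGK. The comparison used every listed peak of this mark on chromosomes 1 to 5, which was 16036 peaks in WT and 15989 in FAMA-LGK, or 32025 of the 47063 peaks in the 4 lists of the study. The FAMA-LGK plants were fama-1 mutants that carried FAMA-LGK under the FAMA promoter (FAMAp), and the WT plants carried neither. Seedlings of both genotypes were kept at 22 °C in cycles of 16 h light and 8 h dark and were 12 days past germination when aerial tissue was protoplasted and guard cells were collected by fluorescence-activated sorting. Each list merged 2 ChIP libraries with 2 inputs, so 8 of the 16 libraries stood behind the comparison, and the other 8 belonged to H3K27me3. The labels do not name the fluorescent marker of the sort or the number of plants and transgenic lines.

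H3K4me3 is laid down by Trithorax-type methyltransferases at the starts of transcribed genes and spreads into the gene body to different extents. Broad domains of the mark are often found at genes that are highly or cell-type-specifically transcribed. FAMA is a bHLH transcription factor that halts division and starts guard cell differentiation at the end of the stomatal lineage. The LGK form is altered in the motif through which FAMA binds the retinoblastoma-related protein RBR1, and guard cells of such plants can return to lineage divisions. The series sets these reprogrammed cells against fully differentiated guard cells.

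The lists were close in size and differed in scale. They covered 19.91 Mb in WT and 20.21 Mb in FAMA-LGK, with median peak widths of 1115 and 1133 bp. The authors' fold of a peak, which is the enrichment over the input, had a median of 5.04 in WT and 4.58 in FAMA-LGK, with highest values of 8.96 and 8.31. Folds were therefore read only as ranks within a list. The lists hold 1 value per genotype and no replicate values, so no difference given here has a replicate check or a test. Depth is unknown, and in bulk chromatin fewer cells with a mark cannot be told apart from a weaker mark in each cell.

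The FAMA locus itself, listed in the gene table as FMA, was covered over 2886 bp in WT against 627 bp in FAMA-LGK. Covered length here is the number of bp under peaks within the gene and 500 bp on each side. The peaks at FMA had folds of 1.53 and 1.35. These lay at the 0.00908 percentile in WT and the 0.00303 percentile in FAMA-LGK among the genes ranked in both lists. The authors' −log10 q of the FMA peaks was 41.1 in WT and 21.9 in FAMA-LGK. A WT peak of like fold at CYCB1;3 (1.53) had a −log10 q of 4.72. Fold and q thus ordered this locus differently, and its low percentiles of fold are not read as weak marking. The reason was not tested. Reads of the introduced FAMA-LGK and of the mutated locus cannot be told apart in these lists, so the values do not check the labels.

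The labelled cell type was compared with its defining markers. All 8 guard cell markers carried the mark in WT, and 6 of 8 did in FAMA-LGK (60.2% of all genes did in both lists). A marker that lacked it in FAMA-LGK carried it in WT through a peak whose summit lay outside the gene and its flanks. FAMA-LGK had a narrower peak with a nearby summit there that did not reach this gene. In FAMA-LGK the 7 markers other than MYB60 were shorter by at least 300 bp (5.08% of all genes were). All 6 markers that carried the mark in both lists ranked at least 20 percentile points lower (9.13% of all ranked genes did). Markers of other cell types moved as well. The 4 pavement cell markers were all longer in FAMA-LGK, from 239 bp for PDF2 to 1388 bp for PDF1, which was marked in FAMA-LGK alone. The 3 pavement cell markers ranked in both lists had a median percentile of fold of 26.9 in WT and 15.5 in FAMA-LGK. None of these 3 moved by 20 points, but in the stricter ranking described below 1 of the 3 stood at least 20 points lower. Of the 7 mesophyll markers, the Rubisco small subunit genes RBCS2B (1158 and 0 bp) and RBCS1B (726 and 0 bp) were marked in WT alone. The other 5 differed by at most 103 bp. Of these 5, 1 ranked at least 20 points lower in FAMA-LGK and none higher, and their median percentile was 34.6 in WT and 29.7 in FAMA-LGK. RBCS copies are near-identical, so reads can be assigned to the wrong copy. Of 6 phloem and xylem markers 5 lacked the mark in both lists, and the sixth, the sucrose carrier gene SUC2, went from 661 to 1423 bp. Of 4 trichome and root hair regulators only GL2 was marked, with 959 and 1024 bp. The part that other cell types play in the differences below was not tested.

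Most of the H3K4me3 landscape was shared. A gene was counted as marked when peaks covered at least 150 bp of its body, and 16526 of 27444 protein-coding genes (60.2%) were marked in both lists. WT alone marked 556 genes (2.03%) and FAMA-LGK alone marked 545 (1.99%). Genes marked in 1 list were weakly enriched there. Their median folds were 2.17 in WT and 2.16 in FAMA-LGK, against 5.26 and 4.76 at genes marked in both. Across the 16526 shared genes the Pearson correlation of covered length between the lists was 0.88, as a description across genes that share libraries, gene length and neighbours.

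Among shared genes the median difference in covered length, FAMA-LGK minus WT, was 17 bp, and 59.3% of genes lay within 100 bp of no difference. The middle 90% of differences ran from -305 to 337 bp. Over all 27444 genes, 1393 (5.08%) were at least 300 bp shorter in FAMA-LGK and 1534 (5.59%) were at least 300 bp longer. These genes made 1157 and 1292 separate loci, since neighbours can share a peak. A difference of 1000 bp or more was rare at shared genes, with 85 genes shorter and 62 longer. Long domains differed more often in both directions. Of genes with a mean covered length below 1000 bp, 2.91% were shorter and 3.101% longer by 300 bp, and of genes with 2000 to 3000 bp, 12.7% were shorter and 15.6% longer.

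**Figure D1:**
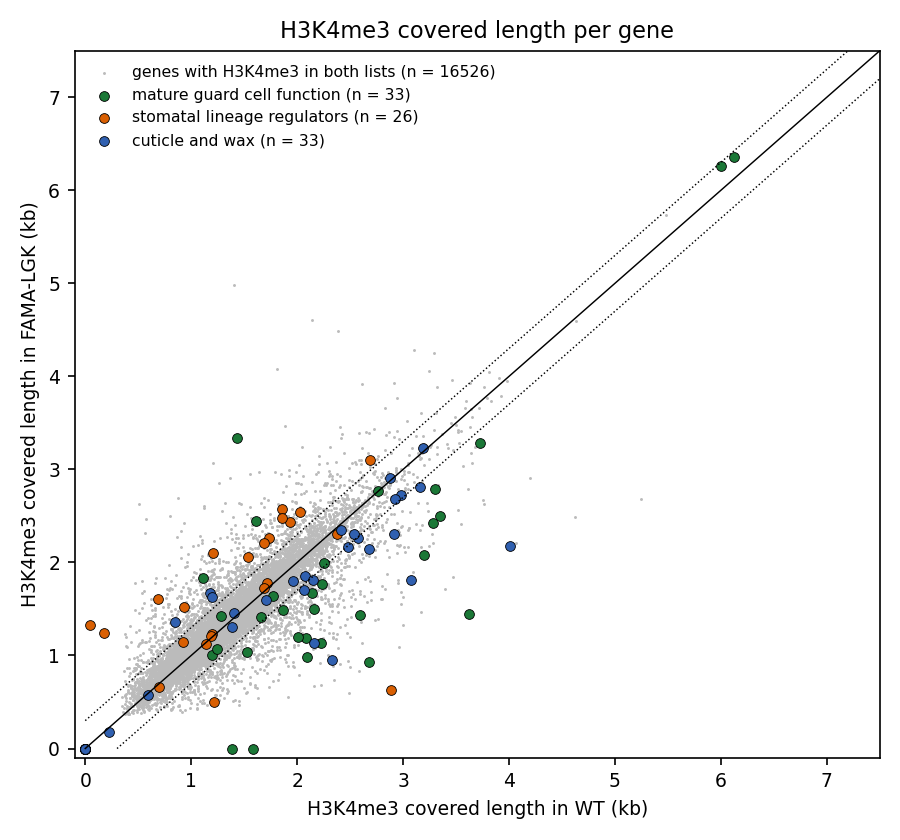
H3K4me3 covered length of each gene in WT (x axis, kb) against FAMA-LGK (y axis, kb). Grey points are the 16526 genes marked in both lists, coloured points are all members of 3 gene lists, the solid line is equality and the dotted lines are 300 bp above and below it; most guard cell genes lie below the lower dotted line and many stomatal lineage regulators above the upper one.

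Matched domains that touched a single gene and differed in width did so mainly at the edge towards the gene interior. Of the 15045 regions that matched one to one, 84.3% kept their summit within 100 bp and the median summit shift was 40 bp. In 11340 of them the region touched a single gene and both summits lay inside it, so that an edge at the near gene end could be told from an edge towards the gene interior. The 438 of these that were at least 300 bp narrower in FAMA-LGK had a median width difference of -477.5 bp. The median outward shift of their interior edge was -385 bp and that of their outer edge was -81 bp. The 579 that were at least 300 bp wider had a median difference of 436 bp, made up of 393 bp at the interior edge and 41 bp at the outer edge. The interior edge moved more than the outer one in 87.9% of the narrower and 94.6% of the wider regions, against 74.1% of all 11340. The gene table gives no strand, so which gene end is the start was not read. Domains that split, fused or touched a neighbouring gene are not covered by these edge counts. A region whose outer edge reached a neighbouring gene in either list was thus left out, while an interior edge could shift along the gene. The part that this choice of regions plays in the contrast of the edges was not tested.

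**Figure D2:**
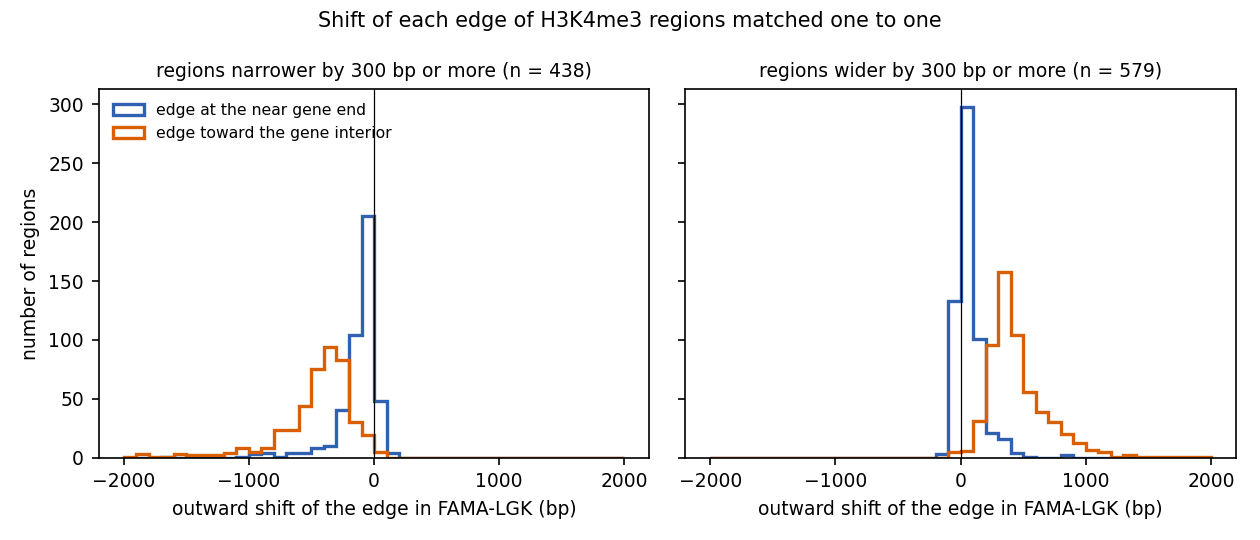
Outward shift of each edge of H3K4me3 regions in FAMA-LGK relative to WT (x axis, bp; negative is a pull-back) as the number of regions (y axis), for regions narrower (n = 438) or wider (n = 579) by 300 bp or more that touch a single gene. Blue is the edge at the gene end nearer the summit and orange the edge towards the gene interior; the outer edges cluster near 0 while the interior edges centre near -385 and 393 bp, and shifts beyond 2000 bp are drawn in the end bins.

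Among named genes marked in both lists, the 12 with the most covered length missing in FAMA-LGK included several genes of guard cell function and of the cell surface. The auxin transporter gene ABCB4 (AT2G47000) had 5242 bp of cover in WT against 2686 bp in FAMA-LGK. A single WT peak at chromosome 2, 19310131 to 19315372 (TAIR10), stood where FAMA-LGK had 2 peaks of 1323 and 1363 bp at the gene's ends. The myrosinase gene TGG1 (AT5G26000) had 3625 and 1442 bp, in the same order. Its WT peak at chromosome 5, 9078806 to 9082576, had a fold of 5.42, and its FAMA-LGK peak, 9080821 to 9082262, had a fold of 1.70.

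CHX20 (AT3G53720), a cation/proton exchanger gene of guard cells, had 4623 and 2489 bp. The WT peak from 19906568 to 19910186 on chromosome 3 was 3619 bp wide and the FAMA-LGK peak from 19908424 to 19910205 was 1782 bp wide, while the summits stayed close together, at 19909517 and 19909451. LACS1 (AT2G47240), an acyl-CoA synthetase gene of wax and cutin formation, had 4011 and 2175 bp. The anion channel gene ALMT12 had 2677 and 925 bp, and the hexose transporter gene MSS1 (also called STP13) had 3395 and 1714 bp. The cellulase gene GH9B1 (2499 and 878 bp), the flowering regulator gene CO (2479 and 939 bp), the laccase gene LAC8 (2401 and 908 bp), the RNA-binding protein gene La1 (2998 and 1332 bp) and SHB (3169 and 1470 bp) completed the 12, with FMA itself.

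The 12 genes with the most added length in FAMA-LGK included genes of the cell wall, of defence and of hormone metabolism. The beta-galactosidase gene BGAL1 (AT3G13750) had 1402 bp of cover in WT against 4985 bp in FAMA-LGK. Its peaks began close together, at 4510935 and 4510902 on chromosome 3, and ended at 4512336 in WT and 4515886 in FAMA-LGK. The lipoxygenase gene LOX4 (AT1G72520) of jasmonate synthesis had 2144 and 4605 bp, with separate WT peaks at the gene's ends where FAMA-LGK had 1 peak of 4202 bp across the gene. PEPR1 (AT1G73080), the gene for a receptor of immune Pep peptides, had 2382 and 4492 bp and showed the same filling between WT peaks of 1611 and 771 bp.

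RBOHD (AT5G47910), an NADPH oxidase gene of the immune oxidative burst that also acts in guard cells, had 1432 and 3343 bp. Its folds of 5.28 and 6.31 lay at the 50.5 and 93.5 percentiles. The gibberellin 2-oxidase gene GA2OX6 (1365 and 2903 bp), the beta-xylosidase gene BXL1 (1808 and 4077 bp), the glucosyltransferase gene UGT85A5 (503 and 2631 bp), EDA39 (573 and 2472 bp), the GRAS factor gene SCL1 (1209 and 3074 bp), GH3.9 (1260 and 2851 bp), RIP5 (1124 and 2590 bp) and HSL1 (907 and 2335 bp) made up the rest. At UGT85A5 and EDA39 the WT peak was among the weakest of its list, at the 1.07 and 0.735 percentiles, and the FAMA-LGK peak stood at the 18.6 and 22.3 percentiles.

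**Figure D3:**
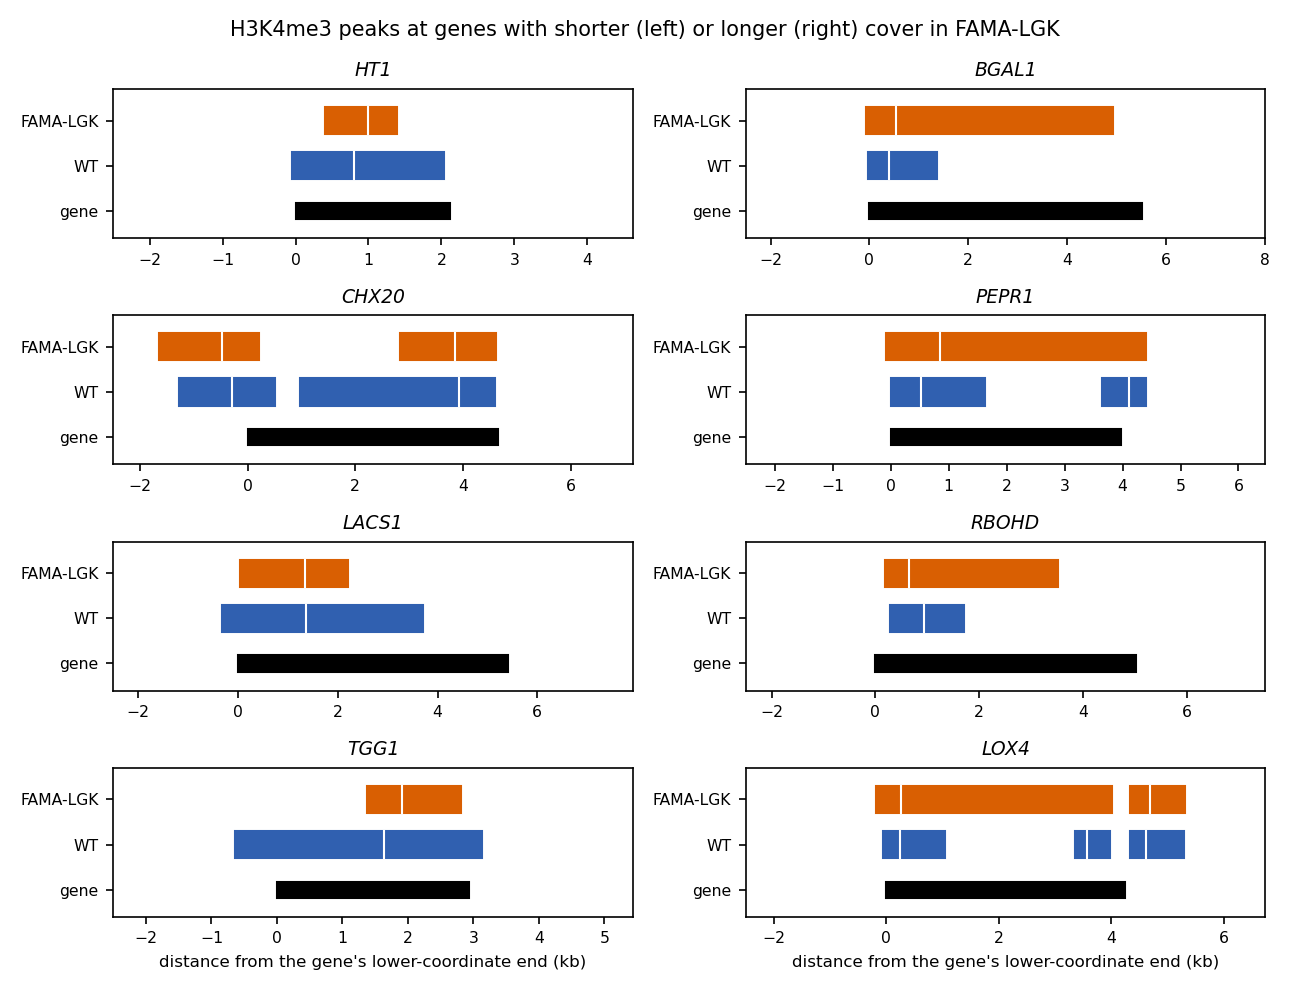
H3K4me3 peaks of WT (blue) and FAMA-LGK (orange) at 8 genes, by distance from the lower-coordinate end of the gene (x axis, kb), with the gene in black and each peak's summit as a white line. At HT1, CHX20, LACS1 and TGG1 (left) the FAMA-LGK peak covers less of the gene, and at BGAL1, PEPR1, RBOHD and LOX4 (right) it runs on through the gene.

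Within-list ranks of fold were also largely shared. Over the 16525 genes ranked in both lists Spearman's rho between the folds was 0.84, and the median absolute difference was 8.37 percentile points. At least 20 points lower in FAMA-LGK were 1508 genes (9.13%), and at least 20 points higher were 1539 (9.31%). Rank and length were related loosely, with a rho of 0.32 across the same genes. Of the genes that ranked lower, 17.3% were also at least 300 bp shorter and 2.39% longer. Of those that ranked higher, 14.7% were longer and 2.01% shorter.

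A stricter ranking took only the 14398 genes with a single matched region whose summits lay inside the gene in both lists, and gave 1187 lower (8.24%) and 1217 higher (8.45%). Of the 10 named genes furthest down in rank, 5 had a value in it and all 5 stayed at least 20 points lower. HT1 (AT1G62400), a kinase gene of the guard cell carbon dioxide response, went from the 81.5 to the 0.295 percentile in that ranking, with folds of 6.18 and 1.67. MSS1 went from 90.3 to 16.1, PRP2, which encodes a proline-rich wall protein, from 89.7 to 11.6, CSLA02, a mannan synthase gene, from 96.4 to 28.6, and sks9 of the multicopper oxidase-like SKU5 family from 96.99 to 1.58.

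Of the 10 furthest up in rank, 7 had a value in the stricter ranking and 3 stayed at least 20 points higher. These were GA2OX6 (20.4 and 90.1), the receptor kinase gene PERK1 (36.4 and 99.4) and AR781 (23.7 and 87.3). At VLN1, CAX9, MAP70-4 and RLM3 the stricter differences were -4.60, 8.33, 1.67 and 15.1 points. Their WT folds were the same in both rankings. Their FAMA-LGK folds in the first ranking came from another peak than the one whose summit lay inside the gene. The remaining 8 of the 20 named genes, TIM17-1, DTA4, LEA3, HTR12, AGO6, WIH1, NRPD7 and PSY1, had no such single region, and their rank differences are not read here.

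Among genes with a symbol, the 5 genes named for the highest folds of each list were marked in both. In WT they were CGL1, BET10, STN8, EDA10 and PMAT1, with folds from 8.67 to 8.96, and the lowest of the 5 in FAMA-LGK stood at the 95.1 percentile. In FAMA-LGK they were KLCR1, ADC1, AIR12, ATAF1 and BPM1, with folds from 7.93 to 8.31, and the lowest of the 5 in WT stood at the 97.3 percentile. CGL1 encodes the first enzyme of complex N-glycan formation and STN8 a thylakoid protein kinase.

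Genes of mature guard cell function mostly had shorter H3K4me3 in FAMA-LGK, and more of them ranked at least 20 points lower than higher. Of 33 members 19 were at least 300 bp shorter (5.08% of all genes were) and 3 at least 300 bp longer (5.59%), and the median difference was -463 bp. Of 29 ranked members 13 stood at least 20 percentile points lower (9.13% of all ranked genes did) and 4 higher (9.31%). The median percentile went from 50.03 to 36.7. The 8 guard cell markers above are members of this list and gave 7 of the 19 and 6 of the 13. Length and rank did not always go together. Among ion transport genes, the inward potassium channel genes KAT1 and KAT2 were shorter by 849 and 516 bp and ranked far lower, from the 40.1 to the 5.39 and from the 59.9 to the 6.31 percentile. The slow anion channel gene SLAC1, listed as OZS1, was 895 bp shorter and went from the 60.9 to the 6.44 percentile. Its relative SLAH3 was 463 bp shorter and went from 35.6 to 18.2.

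The proton pump gene AHA5, listed as HA5, went the other way in rank. It was 1085 bp shorter but stood at the 54.5 percentile in WT and the 94.99 in FAMA-LGK. AHA1, listed as HA1, was 1117 bp shorter at nearly the same rank (48.1 and 41.2).

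Among regulators, the blue light kinase gene BLUS1 (AT4G14480) went from the 89.6 to the 4.33 percentile and SCAP1 (AT5G65590), a DOF factor gene of guard cell maturation, from the 85.4 to the 17.9. MPK12, a kinase gene of guard cell signalling, was only 264 bp shorter but went from the 72.9 to the 8.26 percentile. The 3 members at least 300 bp longer in FAMA-LGK were RBOHD, the carbonic anhydrase gene CA4 (listed as BCA4, 834 bp longer) and the blue light receptor gene PHOT1 (722 bp longer). The list was compiled with earlier results of these data known.

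The stomatal lineage regulators were mostly longer but not higher in rank. Of 26 members 13 were at least 300 bp longer (5.59% of all genes were) and 2 shorter (5.08%), at 13 and 2 separate loci, and the median difference was 319 bp. None of the 21 ranked members moved by 20 percentile points in either direction, and their median percentile was 17.3 in WT and 16.9 in FAMA-LGK. In the stricter ranking of 18 members, 1 moved by that much, EPF1, from the 22.0 to the 1.31 percentile. Members differed widely in rank. The highest were TMM, a receptor-like protein gene of stomatal patterning, at the 88.0 and 95.3 percentiles, and ICE1, which encodes a bHLH partner of the lineage factors, at 94.8 and 89.3, followed by the bHLH gene SCRM2 at 82.6 and 69.0, and the kinase gene YDA stood at 57.7 and 67.8. EPF1, the gene of a secreted spacing peptide, was 708 bp shorter. When only the upper 50% of peaks by −log10 q were kept, 15.4% of the list was longer and 0% shorter by 300 bp. Peaks of low −log10 q are dropped in that setting, so it cannot show whether longer cover at genes of low rank holds.

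**Figure D4:**
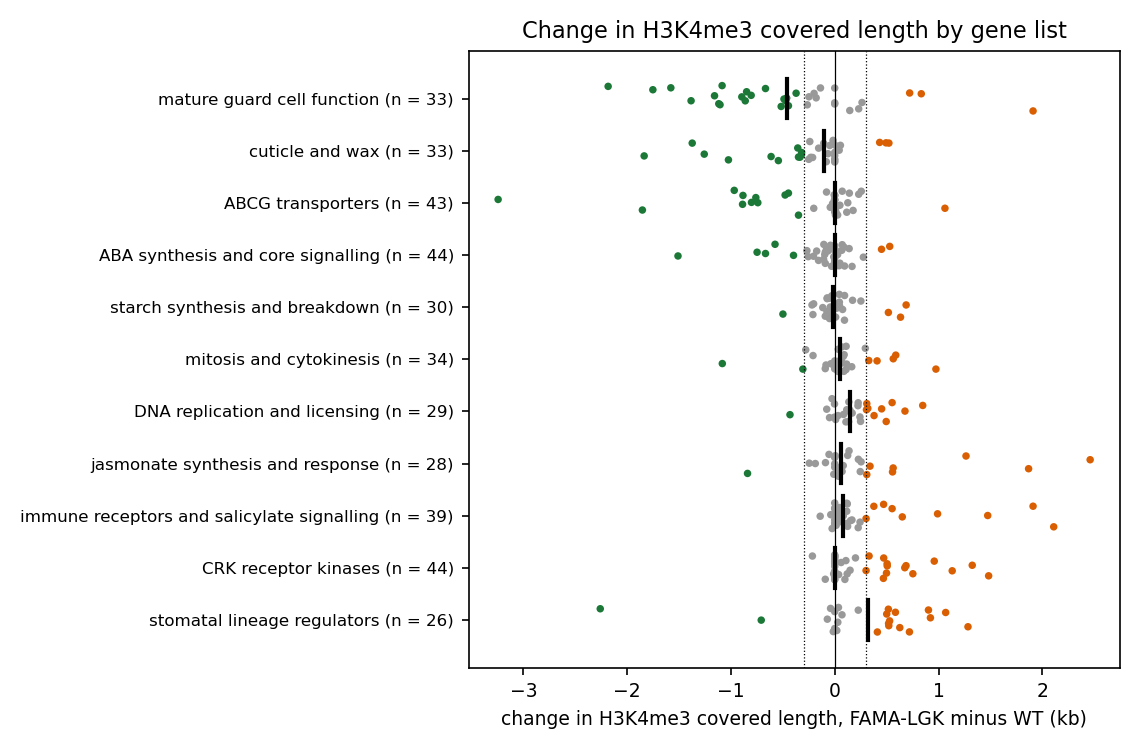
Difference in H3K4me3 covered length, FAMA-LGK minus WT (x axis, kb), of every member of 11 gene lists. Each point is a gene, green for at least 300 bp shorter, orange for at least 300 bp longer and grey between; black bars are list medians, from -463 bp for guard cell function to 319 bp for stomatal lineage regulators, and vertical scatter is for display only.

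Genes of DNA replication had a low median rank and were more often longer than shorter in FAMA-LGK. Of 29 members 9 were at least 300 bp longer (5.59% of all genes were) and 1 shorter (5.08%), and the median difference was 152 bp. The MCM helicase loads onto origins before S phase. Its genes MCM6 (0 and 553 bp) and MCM3 (0 and 848 bp) were marked in FAMA-LGK alone, and MCM2, MCM4, MCM5 and MCM7 (listed as PRL) were longer by 452, 319, 379 and 677 bp. The licensing factor gene CDC6 went from 492 to 988 bp. Origin recognition genes differed less, with ORC3 306 bp longer and ORC2 9 bp longer. The ribonucleotide reductase gene RNR2A was the member that was shorter, with 1599 and 1168 bp. The median percentile of fold was 7.62 in WT and 11.1 in FAMA-LGK, although single members such as ORC4 (97.1 and 93.2) ranked high. With the upper 50% of peaks 3.45% of the list was longer.

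Mitosis and cytokinesis genes, by contrast, lay closer to all genes. Of 34 members 5 were longer (5.59% of all genes were) and 2 shorter (5.08%) by 300 bp, and the median difference was 50.5 bp. The mitotic cyclin genes CYCB1;1 (0 and 975 bp), CYCA1;1 (862 and 1450 bp), CYCA2;3 (1247 and 1655 bp) and CYCB1;3 (784 and 1112 bp) and the kinesin gene HIK of cytokinesis (1537 and 2101 bp) were longer. CYCA2;4 was 1083 bp shorter and the MYB factor gene MYB3R1, listed as PC-MYB1, was 307 bp shorter. The peak at MYB3R1 itself was 1702 bp wide in WT and 1540 bp in FAMA-LGK. The rest of its difference lay in its flank, under the end of a WT peak that was also counted at La1. The mitotic kinase genes AUR1, AUR3, CDKB1;1 and CDKB2;1 differed by 24 to 75 bp. With the upper 50% of peaks 0% of the list was longer. The difference between the replication and mitosis lists was not tested.

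Abscisic acid (ABA) closes stomata through PYR/PYL receptors, PP2C phosphatases and SnRK2 kinases. Genes of ABA synthesis and core signalling were mostly alike in length. Of 44 members 5 were shorter (5.08% of all genes were) and 2 longer (5.59%) by 300 bp, with a median difference of 0 bp. RAB18, a dehydrin gene induced by ABA, went from 1877 to 367 bp, and ABI5, a bZIP factor gene, from 397 to 0 bp. Both were marked in WT alone. The peaks at RAB18 had their summits beyond the gene and its flank, at 26519998 in WT and 26520035 in FAMA-LGK. Their widths were 2590 and 1048 bp and their folds 4.48 and 4.91, in the same order. The receptor gene PYL2 was 748 bp shorter and went from the 52.0 to the 6.70 percentile, and the kinase gene OST1 was 667 bp shorter. The factor gene ABF3 was 575 bp shorter and its relative ABF4 530 bp longer. The phosphatase genes ABI1 (2158 and 2208 bp) and PP2CA (1947 and 1882 bp) had long domains in both lists, and that of ABI1 stood at the 92.8 and 97.3 percentiles.

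Of 30 starch genes 1 was shorter (5.08% of all genes were) and 3 longer (5.59%) by 300 bp, with a median difference of -19.5 bp. With the upper 50% of peaks 10% of the list was shorter and 6.67% longer. The granule-bound starch synthase gene GBSS1 was marked in FAMA-LGK alone (0 and 688 bp). The ADP-glucose pyrophosphorylase subunit genes differed in direction, with APL4 499 bp shorter and APL1 517 bp longer. The guard cell amylase gene BAM1 was 219 bp shorter and stood at the 78.5 and 97.3 percentiles.

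Cuticle and wax genes were shorter in FAMA-LGK more often than genes in general. Of 33 members 11 were at least 300 bp shorter (against 5.08% of all genes) and 3 longer (5.59%), with a median difference of -106 bp. Long domains differed more often in general, and the lists were not matched for length. Of shared genes with a mean covered length of 2000 to 3000 bp, 12.7% were shorter. Over the gene body alone 21.2% of the list was shorter, against 33.3% with the flanks. Of 26 ranked members 7 stood at least 20 points lower (9.13% of all ranked genes did) and 3 higher (9.31%). In wax synthesis CER2 went from 2325 to 952 bp and CER3 from 3073 to 1816 bp, and the elongase gene KCS6 was 613 bp shorter. In cutin synthesis the acyltransferase genes GPAT8 and GPAT4 were shorter by 1024 and 543 bp, BDG1 by 319 bp, and the wax transporter gene ABCG12 by 349 bp. The longer members were all regulators, the MYB factor genes MYB106 (433 bp) and MYB16 (494 bp) and the wax repressor gene DEWAX (AT5G61590, 522 bp). MYB30 and MYB94, MYB activators of wax genes, were 335 and 155 bp shorter. SHN1, SHN2 and SHN3, CER1 and WSD1 lacked the mark in both lists and were covered by H3K27me3.

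The families of genes with a common symbol gave further contrasts, and 27 families were counted. Of 43 ABCG transporters, which export lipids and hormones, 11 were shorter (5.08% of all genes were) and 1 longer (5.59%) by 300 bp. ABCG27 (3243 and 0 bp), ABCG4 (1853 and 0 bp) and ABCG42 (802 and 0 bp) were marked in WT alone. Of 24 ranked members 11 stood at least 20 points lower (9.13% of all ranked genes did) and none higher (9.31%), and the median percentile went from 65.0 to 36.8. ABCG22, a transporter gene of stomatal control, was 968 bp shorter, and ABCG5 was 884 bp shorter and went from the 71.3 to the 8.18 percentile. ABCG32, a cutin exporter gene, was 116 bp longer and yet went from the 91.8 to the 36.9 percentile. Of 21 KCS elongase genes, which make very long acyl chains, 5 were shorter (5.08% of all genes were) and 1 longer (5.59%).

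Cysteine-rich receptor-like kinases (CRKs), many of which respond to pathogens and oxidative stress, were the reverse. Of 44 members none was at least 300 bp shorter (5.08% of all genes were) and 14 were longer (5.59%), at 11 separate loci. CRK40 (0 and 1483 bp), CRK31 (0 and 1132 bp), CRK15 (0 and 959 bp), CRK30 (350 and 1675 bp), CRK34 (214 and 901 bp) and CRK26 (532 and 1207 bp) were marked in FAMA-LGK alone, against 1.99% of all genes. CRK10 and CRK11 shared a FAMA-LGK peak and were longer by 469 and 499 bp. The median percentile of 16 ranked members went from 22.5 to 69.3. That step rests on few genes, since 3 of the 16 ranked at least 20 points higher (9.31% of all ranked genes did). CRK42 among these went from the 23.9 to the 77.3 percentile. Many CRK genes are tandem copies of similar sequence, so the assignment of reads among them is uncertain. With the upper 50% of peaks 13.6% of the family was longer.

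**Figure D5:**
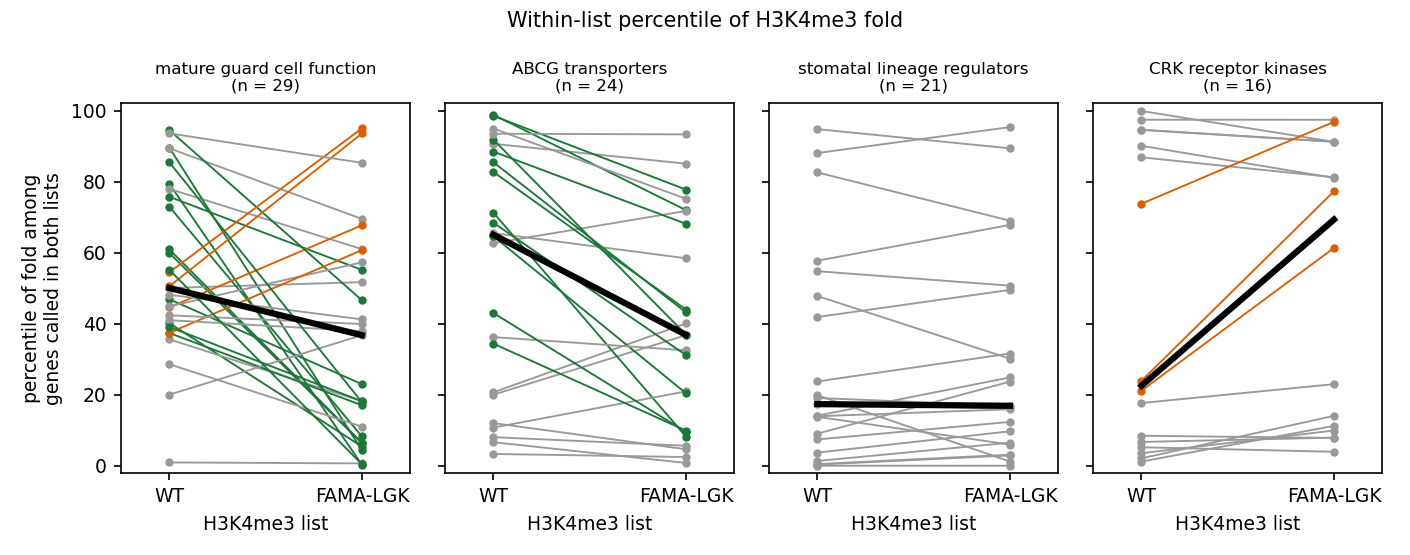
Within-list percentile of the authors' fold (y axis) in WT and FAMA-LGK for ranked members of 4 gene lists. Each thin line is a gene, green for at least 20 points lower and orange for at least 20 points higher, and thick black lines join medians, 50.03 to 36.7 for guard cell function, 65.0 to 36.8 for ABCG transporters, 17.3 to 16.9 for lineage regulators and 22.5 to 69.3 for CRKs.

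Immune and jasmonate genes had longer cover more often than shorter, but no higher median rank. These 2 lists were chosen after values had been seen, so their counts are a description only. Of 39 immune receptor and salicylate signalling genes 9 were longer (5.59% of all genes were) and none shorter (5.08%) by 300 bp. Beside RBOHD and PEPR1 these were CYP81F2 of indole glucosinolate synthesis (635 and 2109 bp), the calmodulin-binding activator gene CBP60G (810 and 1801 bp), the lipase-like immune regulator genes PAD4 (0 and 651 bp) and SAG101 (833 and 1386 bp), WRKY53 (1449 and 1920 bp), the kinase gene MPK3 (2200 and 2577 bp) and the flagellin receptor gene FLS2 (679 and 981 bp). The receptor partner gene BAK1 (1508 and 1545 bp) and NPR1 (1172 and 1222 bp) were alike, and PR1 and WRKY70 lacked the mark in both lists. With the upper 50% of peaks 7.69% of the immune list was longer. Of 29 ranked immune genes 3 stood at least 20 points higher (9.31% of all ranked genes did) and none lower (9.13%). Their median percentile was 49.1 in WT and 46.9 in FAMA-LGK.

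Of 28 jasmonate genes 7 were longer (5.59% of all genes were) and 1 shorter (5.08%) by 300 bp. Of 21 ranked members 2 stood at least 20 points higher (9.31% of all ranked genes did) and 2 lower (9.13%). Their median percentile was 46.0 in WT and 43.3 in FAMA-LGK. The allene oxide cyclase gene AOC1 went from 0 to 1868 bp, beside near-identical tandem copies that can share reads. The repressor gene JAZ6 went from 430 to 1695 bp and JAZ7 from 840 to 0 bp. The receptor gene COI1 (1625 and 1570 bp) and the factor gene MYC2 (2806 and 2944 bp) were alike and stood between the 97.1 and 99.4 percentiles in both lists.

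Among other families, 234 cytochrome P450 genes held 16 marked in FAMA-LGK alone (1.99% of all genes were) and 6 in WT alone (2.03%). By length 30 were longer and 24 shorter by 300 bp (5.59% and 5.08% of all genes were). CYP83B1 of indole glucosinolate synthesis went from 0 to 1689 bp, CYP71B4 from 0 to 1829 bp and CYP98A3 of phenylpropanoid synthesis from 1640 to 2977 bp. In the other direction CYP710A2 of sterol synthesis went from 1136 to 0 bp. Of 32 Aux/IAA auxin repressor genes 5 were longer and 2 shorter, with SHY2 (0 and 936 bp), AXR3 (0 and 925 bp) and IAA1 (553 and 1554 bp) marked in FAMA-LGK alone. Of 22 TCP growth regulator genes 5 were longer and none shorter by 300 bp. The 37 ribosomal protein genes with a symbol showed a small difference of 1 direction, with 32 longer and 5 shorter by any amount and a median of 105 bp. Over all 27444 genes 10710 were longer and 8480 shorter by any amount, and the median at shared genes was 17 bp. Of these 37, 10 ranked at least 20 points higher (9.31% of all ranked genes did) and 1 lower (9.13%). Of 16 ranked light-harvesting antenna genes 6 ranked at least 20 points lower and 1 higher (9.13% and 9.31% of all ranked genes did). Their median percentile was 79.4 in WT and 57.6 in FAMA-LGK, while the family's median difference in length was 9 bp. Several antenna genes are near-identical copies.

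H3K27me3, the mark of Polycomb-repressed chromatin, differed beside H3K4me3 at some genes that carried H3K4me3 in both lists over different lengths. Of the 840 genes marked in both lists and at least 300 bp shorter in FAMA-LGK, 28 (3.33%) carried H3K27me3 in FAMA-LGK alone and 6 (0.714%) in WT alone. Of the 995 that were at least 300 bp longer, 3 (0.302%) carried it in FAMA-LGK alone and 39 (3.92%) in WT alone. Of the 9792 within 100 bp, 38 (0.388%) and 84 (0.858%) did. The exact 95% intervals, which cover counting error only, were 2.23 to 4.78% and 2.80 to 5.32% for the larger share of each class. Over all 27444 genes 1.37% carried H3K27me3 in FAMA-LGK alone and 1.39% in WT alone. The shorter and longer genes also carried it in WT more often, at 12.6% and 14.2%, against 5.02% of those within 100 bp. The part this plays in the shares above was not tested. TGG1 (0 and 2933 bp of H3K27me3 in the gene body), PYL2 (0 and 829 bp) and SCAP1 were among the shorter genes, and CBP60G (563 and 0 bp) and LTP1, listed as LP1 (437 and 0 bp), were among the longer ones. At HT1, SLAC1, KAT1, LACS1 and CER2 no H3K27me3 covered the gene body in either genotype.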

How the data were processed

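Chromatin of sorted guard cells was immunoprecipitated and sequenced, and 1 peak list per mark and genotype was analysed. The submitters' processing notes name the build TAIR10 and the tools MACS2, Bowtie2 and CASAVA 1.8.2, but no roles or settings. Neither the peak threshold nor the way of merging replicates is given in the sources used here. The fold of each deposited peak is a ratio of ChIP to control made by the authors. The deposited lists also hold the authors' −log10 q of each peak and a score, which was not used. Peak numbers ran to 16553 (WT) and 16491 (FAMA-LGK), above the number of peaks listed. No column was unmapped. Signal tracks were not used here.

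Peaks that touched were merged within a list. Genes came from a RefSeq table (assembly TAIR10.1, no strand), with 27444 protein-coding genes on chromosomes 1 to 5. Printed positions are the deposited peaks' own, 1-based. A gene was marked when at least 150 bp of its body was covered. Covered length took the body and 500 bp on each side, with a threshold of 300 bp. The percentile of a gene is that of its highest fold among peaks covering at least 150 bp of the body, over genes marked in both lists, with a threshold of 20 points. The stricter ranking was added after seeing the data. H3K27me3 calls used the same 150 bp rule. Computation used Python 3.11.15, numpy 2.4.6, pandas 2.3.3, scipy 1.17.1 and matplotlib 3.10.9, and the scripts were tested on simulated data.

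Named genes were, among genes with a symbol, the 12 largest losses and gains of length, the 10 largest falls and rises in percentile (all marked in both lists, at most 1 per merged region), the 5 highest folds per list, and members of the gene lists. Members and lists were chosen with earlier results of these data known. The lists and families were read by symbol or synonym, and families hold only genes whose symbol shows the family. Examples within lists and families were chosen by role and after their values were seen. The values of 1 member of the guard cell list are not reported here.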

Additional observations from a re-analysis of the deposited data

How the results depend on the processing

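Of 152 values recomputed under alternatives, 135 stayed within 1.5 times of a count or the 95% counting interval of a share, and 17 moved. The balance of the 2 directions turned in some settings. Equal numbers of peaks gave 540 genes marked by the WT list only and 557 by the FAMA-LGK list only, and ranking by −log10 q gave 1124 lower and 1056 higher. When only the upper 50% of peaks by −log10 q were kept, genes marked in WT alone numbered 1143 and in FAMA-LGK alone 1062. In that setting the lineage regulators were 0% shorter and 15.4% longer, and the longer share was 3.45% for replication, 0% for mitosis, 7.69% for immune and 13.6% for CRK genes. The median percentile by −log10 q in WT and FAMA-LGK was 16.8 and 22.9 for ranked lineage, 7.57 and 9.56 for replication and 7.46 and 6.33 for mitosis genes. Peaks that low are dropped in that setting, so it cannot show whether the longer cover at these genes holds. Shorter and longer shares there were 5.88% and 0% for mitosis and 10% and 6.67% for starch, so that more genes were shorter than longer. The cause was not tested. Over the gene body alone, 0% of replication genes and 21.2% of cuticle genes were shorter. A threshold of 150 bp gave 2453 shorter and 3254 longer genes, 500 bp gave 816 and 871, and 10 percentile points gave 3588 lower and 3652 higher. With a reciprocal overlap of at least 50%, 93.7% of WT and 93.96% of FAMA-LGK regions were shared. The shares of shorter guard cell and ABCG genes stayed within their counting intervals in each peak threshold, gene body and merged gap setting. No paired analysis was possible because each list merges its replicates, and for the same reason leaving out a replicate was not run. Depth is unknown, so a difference in depth cannot be told apart from a difference in the mark.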

Other observations

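Genes of small-molecule conjugation differed in both directions. Of 64 UGT glucosyltransferase genes 10 were shorter and 13 longer by 300 bp in FAMA-LGK (5.08% and 5.59% of all genes were). Of the 64, 9 were marked only by the WT list (2.03% of all genes were) and 4 only by the FAMA-LGK list (1.99%). The neighbouring genes UGT85A2 (382 and 1097 bp in WT and FAMA-LGK), UGT85A3 (42 and 1862 bp) and UGT85A5 (503 and 2631 bp) were longer, whereas the pair UGT76E1 (972 and 0 bp) and UGT76E2 (668 and 0 bp) and the gene UGT73D1 (1570 and 0 bp) were marked in WT alone. Several of these are tandem copies, so reads may be assigned to the wrong copy. Of 49 glutathione transferase genes 7 were longer and 2 shorter, with GSTF7 (263 and 1624 bp) and GSTF3 (0 and 973 bp) marked in FAMA-LGK alone and GSTU27 (1397 and 0 bp) in WT alone.

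Genes of wall loosening and water transport were mixed too. Of 33 XTH wall enzyme genes 6 were longer and 4 shorter, with XTH6 (0 and 1327 bp) and XTH24 (305 and 1389 bp) marked in FAMA-LGK alone. Among 24 alpha-expansin genes EXPA8 went from 419 to 1680 bp and EXPA16 from 1772 to 1048 bp. Of 35 aquaporin genes 5 were shorter and 3 longer, and the tonoplast aquaporin gene GAMMA-TIP went from 1053 to 0 bp. Of 80 SAUR auxin response genes 10 were longer and 6 shorter, and of 71 WRKY, 99 NAC and 125 MYB factor genes 9, 6 and 9 were longer and 7, 7 and 9 were shorter. Over all genes 5.59% were longer and 5.08% shorter, and the shares of the NAC and MYB families lay near these. The examples in these families were chosen after their values were seen.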
